A study of Mus musculus with 16 samples.

Results

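The genes described are 10 enzymes of glycolysis, followed through endothelial cells of mouse liver and lung: the hexokinase genes Hk1 and Hk2, the phosphofructokinase genes Pfkl and Pfkp, the regulatory kinase gene Pfkfb3, and Aldoa, Gapdh, Pgk1, Eno1 and Ldha. They were chosen by name, and each symbol matched 1 of the 37991 gene entries of the count tables. The study asked how endothelial cells of organs other than the brain respond when beta-catenin, the effector of canonical Wnt signalling, is made constantly active. Cells of adult mice were stained for CD31, a surface protein of endothelium, and sorted after mechanical dissociation, and RNA of the sorted cells was sequenced in 16 libraries, 4 for each of 4 groups. Liver control and lung control libraries came from mice labelled Rosa-Bcat-GOF/+, which carry 1 copy of an allele for activated beta-catenin and no Cre. Liver GOF and lung GOF libraries came from Rosa-Bcat-GOF/+ mice that also carried VE-Cadherin-CreERT2, an inducible Cre recombinase under the promoter of an endothelial cadherin gene. All groups therefore share the allele, and GOF mice differ from controls both by the recombined allele and by the presence of Cre. The labels state neither an age in weeks nor the inducing treatment nor the share of recombined cells. Each library has a letter, which in both genotypes is B, E, F or G for liver and B, E, F or D for lung.

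Glycolysis converts glucose to pyruvate in the cytosol with a net gain of ATP, and endothelial cells are known for drawing much of their ATP from it even where oxygen is plentiful. Hexokinases trap glucose as glucose 6-phosphate, phosphofructokinases commit it to the pathway, and PFKFB3 makes fructose 2,6-bisphosphate, the strongest known activator of phosphofructokinase. Aldolase splits the hexose, GAPDH, phosphoglycerate kinase and enolase carry the product towards pyruvate, and lactate dehydrogenase reduces pyruvate to lactate and returns NAD+ to GAPDH. PFKFB3 is known in sprouting vessels as a driver of endothelial glycolysis.

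Libraries held 22815467 to 37127150 counted reads, of which the 10 genes took 0.101% to 0.152%. Levels are given as CPM, read counts relative to the library total, with totals scaled by TMM factors over the 16 libraries. Ctnnb1, which encodes beta-catenin, lay at 799 ± 81.6 CPM in liver control and 745 ± 68.3 in liver GOF, and at 687 ± 51.4 and 674 ± 71.3 in lung (SD, n = 4 each); no source used here states whether reads of the activated allele were counted on this entry. The Wnt target genes Tcf7 and Axin2 were above every control library in all GOF libraries of both organs. Tcf7 differed by 3.27 ± 0.35 (log2, SE) in liver, with an adjusted p of 0.0137 by edgeR's quasi-likelihood test, and by 0.96 ± 0.22 in lung, where the adjusted p was 1. The endothelial genes Pecam1 and Cdh5 were between 1448 and 3351 CPM in every library. Transcripts of other cells were present too: 14 hepatocyte marker genes summed to 752 to 3917 CPM in liver libraries and to 4.06 to 16.1 CPM in lung, and 6 alveolar type 2 marker genes summed to 1411 to 13430 CPM in lung. The leukocyte gene Ptprc stayed between 0.131 and 33.9 CPM.

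The 10 genes were spread over a wide range of levels. Expressed per kilobase of the reference transcript, so that genes can be compared, Aldoa had the highest level, with a median of 262 CPM per kilobase over the 16 libraries (lowest 192, highest 348). Ldha followed at 120 (81.1 to 159), and its range did not overlap that of Aldoa above it or of Hk1 below it. Hk1 at 55.5 (39.2 to 74.3) and Pfkfb3 at 43.9 (19.8 to 77.0) overlapped, as did Pfkfb3 and Pfkl at 22.1 and then Pfkp at 19.6 CPM per kilobase. The 4 lowest were Eno1 at 7.72, Gapdh at 7.52, Pgk1 at 6.17 and Hk2 at 4.67 CPM per kilobase, each overlapping its neighbours. Gapdh, often used as a reference gene because it is abundant in nearly all cells, was thus counted at 178 to 538 reads per library, against 8343 to 16096 for Aldoa. By the median CPM it ranked 9212 of 17536 genes.

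The levels of Gapdh, Pgk1 and Eno1 are uncertain as measures of their RNA, since much of their sequence also lies in other annotated genes. In the GENCODE vM21 transcripts (build GRCm38), 78.0% of all 100-base windows of Gapdh, 67.0% of Pgk1 and 59.0% of Eno1 were found letter for letter in another gene, against 0.840% of Ldha and 0 windows of Hk1, Hk2, Pfkl, Pfkfb3 and Aldoa. A read of 100 bases from such a window fits both places equally well, and no source used here states how the counting treated such reads. Gapdh shares stretches of at least 100 bases at 95% identity or more with 81 other genes, 77 of them pseudogenes. The contrast between a shared and a distinguishable stretch is shown by 2 pairs, each from a gene and a processed pseudogene on another chromosome. The first pair is bases 728 to 827 of the transcript of Pgk1, on chromosome X, and the same stretch of Pgk1-rs7, on chromosome 12, which differ at 0 of 100 bases.
Pgk1: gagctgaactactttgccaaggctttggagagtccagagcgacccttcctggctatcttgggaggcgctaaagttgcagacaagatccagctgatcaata
Pgk1-rs7: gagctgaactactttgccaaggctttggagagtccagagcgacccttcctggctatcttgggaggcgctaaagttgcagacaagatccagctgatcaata
The second is bases 875 to 974 of the transcript of Ldha, on chromosome 7, and the stretch of Gm9247, on chromosome 14, which differ at 3 of 100 bases, printed in capitals.
Ldha: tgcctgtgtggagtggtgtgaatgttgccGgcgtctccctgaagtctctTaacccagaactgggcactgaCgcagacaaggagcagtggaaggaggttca
Gm9247: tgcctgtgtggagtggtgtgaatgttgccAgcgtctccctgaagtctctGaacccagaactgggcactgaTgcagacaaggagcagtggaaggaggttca

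Reads were counted on such copies. Over the 16 libraries, 7928 reads were assigned to Eno1 and 15877 to its 2 listed copies, of which Gm5506, annotated as the protein-coding Eno1b, took 8933 and the pseudogene Gm13699 took 6944. For Gapdh the numbers were 5115 on the gene and 3477 on its listed copies, for Pgk1 5115 and 1127, and for Ldha 103348 and 231. Among genes of glycolysis that were not among the 10, the phosphoglycerate mutase gene Pgam1 had 39.7% of its windows shared and a median of 6.22 CPM per kilobase, whereas the triose phosphate isomerase gene Tpi1 lay at 48.6 and the pyruvate kinase gene Pkm2 at 185. Hk2 lay at 4.67 CPM per kilobase and had no shared window. The part of read assignment in these levels was not tested. Pfkp has 16% of its windows in common with Pitrm1, a neighbouring gene on the opposite strand; without strand information, reads of that overlap cannot be told apart.

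**Figure D1:**
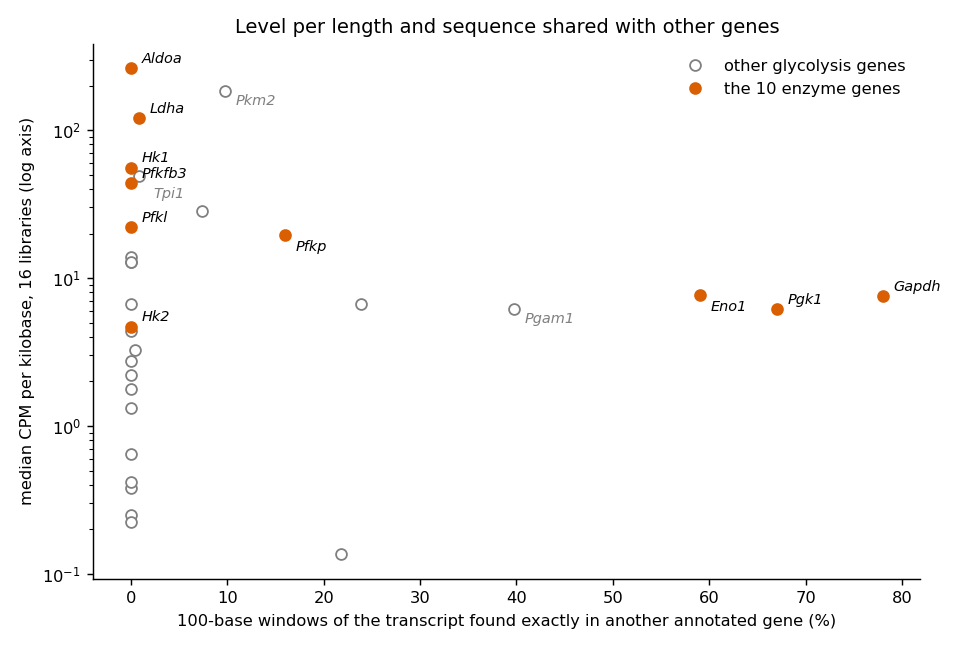
Share of each reference transcript's 100-base windows that occur exactly in another annotated gene (horizontal, percent) against the median level over 16 libraries in CPM per kilobase (vertical, log axis), for the 10 enzyme genes (filled) and other genes of glycolysis (open). Gapdh, Pgk1 and Eno1 lie at the right, at 78.0%, 67.0% and 59.0%, with 6.17 to 7.72 CPM per kilobase, and Hk2 lies as low without shared windows.

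In neither organ did a glycolysis enzyme gene pass the test between GOF and control. In liver 0 of the 10 were called by edgeR's quasi-likelihood test (Benjamini-Hochberg adjusted p under 0.05), where 0.0321% of 15555 genes were, all 5 of them higher in GOF, and adjusted p of the 10 genes ran from 0.838 to 0.993. In lung 0 of the 10 were called, beside 0% of 15641 genes, with adjusted p of 1 throughout. At an unadjusted p under 0.05, 0 of the 10 stood out in either organ, against 1010 genes (6.49%) in liver and 341 (2.18%) in lung. The authors' deposited table gave adjusted p of 0.758 to 0.997 for the 10 genes in liver and of 1 in lung. A p above the threshold does not show equal levels: in liver the 95% intervals allowed, at their widest, an Hk2 level in GOF from 0.751 to 2.52 times that of control, and, for the most tightly measured gene there, an Ldha level from 0.834 to 1.24 times.

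Same-letter libraries of an organ deviated together from their group means, so GOF and control were also compared within letters. Paired in this way, 2.58% of genes were called in liver (401 of 15555, 240 higher) and 0.0192% in lung (3 of 15641), and again 0 of the 10 in each. The unadjusted paired p was under 0.05 for 2 of the 10 in liver, Aldoa and Pfkfb3, where it was for 15.3% of all genes, and for 3 in lung, Pfkfb3, Eno1 and Ldha, where it was for 6.1%. The direction was the same in 4 of 4 pairs for 1 of the 10 in liver, where 24% of all genes did so, and for 4 of the 10 in lung, where 14.7% did. In no case were all GOF libraries of an organ above or below all controls for any of the 10, a separation seen for 4.82% of genes in liver and 2.05% in lung. The median log2 fold change of the 10 was 0.06 in liver and 0.08 in lung, beside medians over all genes of -0.0022 and 0.0063.

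**Figure D2:**
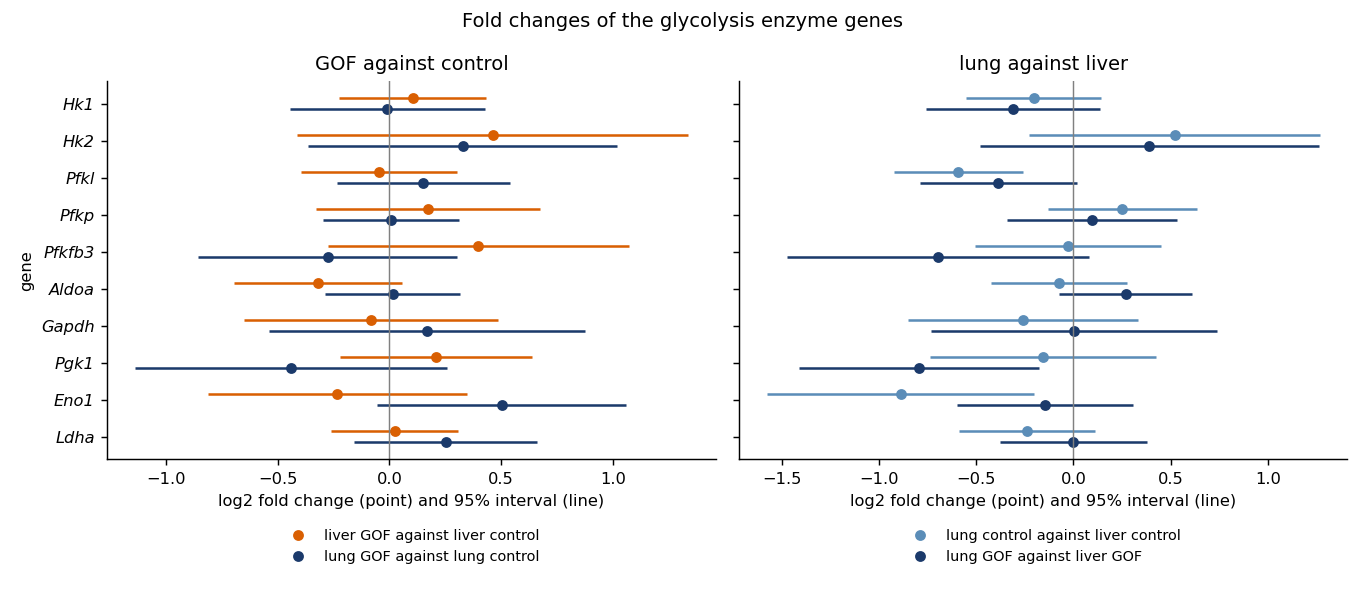
Log2 fold change (point) and 95% interval (line) of the 10 genes by edgeR, for GOF against control in each organ (left) and lung against liver in each genotype (right). All intervals at left include 0, and at right those of Pfkl and Eno1 in control and of Pgk1 in GOF lie below 0.

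Of the hexokinases, the first enzymes of the pathway, Hk1 was the main form in every library. Hk1 measured 218, 238, 238 and 204 CPM in liver control (letters B, E, F, G) and 203, 286, 266 and 210 in liver GOF. In lung it measured 198, 234, 152 and 202 CPM in control (B, E, F, D) and 227, 241, 151 and 157 in GOF. The values of all groups overlapped, and the GOF difference was 0.10 ± 0.15 in liver and -0.01 ± 0.20 in lung (log2, SE). Hk2, the insulin- and hypoxia-inducible hexokinase of muscle and fat, was counted at 11.2, 25.6, 18.5 and 18.1 CPM in liver control and 8.54, 39.4, 27.0 and 26.0 in liver GOF. It was higher in GOF in 3 of 4 liver pairs and lower in letter B, which had the lowest Hk2 of each liver group. In lung Hk2 was at 32.9, 20.03, 14.3 and 38.5 CPM in control and 37.4, 43.2, 19.9 and 31.2 in GOF. The GOF difference was 0.46 ± 0.40 in liver (adjusted p = 0.92, paired 0.453) and 0.33 ± 0.32 in lung (adjusted p = 1, paired 0.869), both by edgeR. These values depended on single libraries: with libraries or pairs left out they ranged from 0.16 (without liver GOF E) to 0.75 (without liver GOF B) in liver, and from 0.12 (without lung control F) to 0.59 (paired, without pair D) in lung, and none was called. Hk2 had the widest spread within groups of the 10, an SD of 0.67 on the log2 scale, where the median of all genes was 0.49.

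The balance of the hexokinase forms was measured as Hk2 reads per 100 Hk1 reads. There were 5.13, 10.7, 7.78 and 8.87 in liver control and 4.21, 13.8, 10.2 and 12.4 in liver GOF, against 16.7, 8.56, 9.45 and 19.1 in lung control and 16.5, 17.9, 13.2 and 19.9 in lung GOF. Lung GOF exceeded liver GOF by 0.85 on the log2 scale, with an exact two-sided permutation p of 0.0571. Leaving out each library in turn gave 0.48 without liver GOF B (exact p = 0.0857) to 1.05 without liver GOF E (exact p = 0.0286), and the exact p was 0.143 without lung GOF B, E or D. The GOF differences were 0.24 in liver (exact p = 0.6) and 0.40 in lung (exact p = 0.286). Adjusted over the 8 ratio comparisons made, the smallest p was 0.229.

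The committed step is carried by phosphofructokinase, whose liver-type subunit is encoded by Pfkl and platelet-type subunit by Pfkp. Pfkl was the 1 gene of the 10 called between the organs in control, a smaller share than among all genes. It measured 114, 94.9, 104 and 81.4 CPM in liver control and 60.7, 75.6, 63.5 and 64.2 in lung control, so that every liver control library lay above every lung control library. The difference was -0.59 ± 0.15 (log2, SE), with an adjusted p of 0.014 by edgeR. Without the liver control library F it was -0.54, with an adjusted p of 0.0578 by edgeR, so the call did not hold without that library. Under 16 alternatives the difference ranged from -0.67 to -0.49, and Pfkl was called under 14. In the reported fit only Pfkl of the 10 was called between controls, where 24.9% of 15806 genes were called. Only its groups did not overlap, where 30.1% of genes did not. Eno1 was called between controls under 6 of the 16 alternatives. In GOF, Pfkl was at 98.4, 104, 107 and 73.0 CPM in liver and 83.3, 70.2, 54.5 and 83.4 in lung; these groups overlapped, and the difference of -0.39 ± 0.18 had an adjusted p of 0.156. Whether the organ difference itself changed with genotype was tested as the interaction, which gave 0.20 ± 0.23 for Pfkl with an adjusted p of 1.

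Pfkp was at 48.0, 80.2, 82.8 and 71.3 CPM in liver control, 53.5, 109, 76.5 and 79.6 in liver GOF, 81.6, 88.5, 84.1 and 84.3 in lung control and 77.8, 80.8, 89.4 and 90.0 in lung GOF. The letter B libraries were the lowest of both liver groups, while the lung control libraries lay close together. The organ difference between controls was 0.25 ± 0.17 (log2, SE), with an adjusted p of 0.341 by edgeR. Pfkp reads per 100 Pfkl reads were 42.2, 84.6, 79.6 and 87.6 in liver control and 135, 117, 132 and 131 in lung control, with no overlap. The log2 ratio differed by 0.87, with an exact two-sided permutation p of 0.0286, the smallest that 4 against 4 libraries can give, and 0.229 after adjustment over the 8 ratio comparisons. Leaving out each library in turn gave 0.62 to 0.97, the lowest without liver control B. In GOF the ratio was 54.4, 104, 71.8 and 109 in liver and 93.4, 115, 164 and 108 in lung, a log2 difference of 0.53 with an exact p of 0.171. Pitrm1, which overlaps Pfkp, was at 37.8 ± 4.92 CPM in liver control and 36.4 ± 7.29 in lung control (SD, n = 4). In lung control, hepatocyte markers were nearly absent and alveolar markers abundant, so other cells differ between the organs along with these genes. From highest to lowest, the liver control libraries ran B, F, E, G for both Pfkl and the sum of the hepatocyte markers. The liver GOF libraries ran F, E, B, G for Pfkl and B, F, G, E for that sum. The part of other cells in these values was not tested. In bulk RNA, fewer cells expressing a gene and less of its RNA per cell cannot be told apart.

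**Figure D3:**
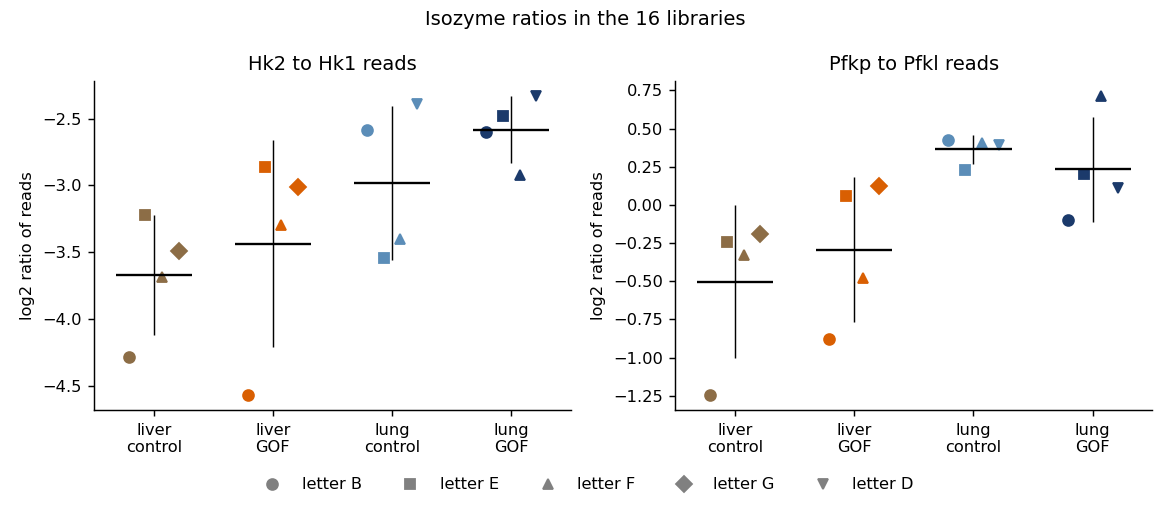
Log2 ratio of Hk2 to Hk1 reads (left) and of Pfkp to Pfkl reads (right) in each library, with the mean (bar) and SD (line) of each group of 4; marker shapes give the library letter. The Pfkp to Pfkl ratio of all 4 lung control libraries lies above that of all 4 liver control libraries, and letter B is lowest in both liver groups of both panels.

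Pfkfb3 was a prominent transcript in both organs and the one that varied most after Hk2. It measured 135, 228, 248 and 202 CPM in liver control and 123, 357, 331 and 260 in liver GOF. The log2 ratio of GOF to control was 0.65, 0.42 and 0.37 for letters E, F and G and -0.14 for letter B, which was lowest in both groups. In lung Pfkfb3 was at 254, 198, 147 and 205 CPM in control and 235, 194, 91.7 and 138 in GOF, lower in 4 of 4 pairs, with log2 ratios of -0.11, -0.03, -0.68 and -0.57. The fitted difference was 0.40 ± 0.31 in liver (adjusted p = 0.903) and -0.28 ± 0.27 in lung (adjusted p = 1) by edgeR. Paired by letter it was 0.32 ± 0.12 in liver (adjusted p = 0.2) and -0.34 ± 0.13 in lung (adjusted p = 0.775). Leaving out pair B, E, F or G gave paired liver values of 0.48, 0.21, 0.29 and 0.31. Their adjusted p by edgeR was 0.0306, 0.585, 0.459 and 0.351, and pair B was the only liver pair lower in GOF. Pfkfb3 had thus opposite signs in the organs. The difference of the GOF effects, lung minus liver, was -0.67 ± 0.44 with an adjusted p of 0.954, and -0.66 ± 0.20 with an adjusted p of 0.199 when paired. In that test of the difference 0 of the 10 were called, beside 0.0057% of 17536 genes, and 0 in the paired form, beside 0.49%. Summed CPM of 10 immediate early and dissociation genes was 24180, 31420, 33910 and 27220 in liver control (B, E, F, G). It was 24300, 26670, 31200 and 28990 in liver GOF. In lung it was 30070, 25700, 16640 and 21720 in control (B, E, F, D) and 27870, 20300, 16670 and 19090 in GOF. From highest to lowest, its order matched that of Pfkfb3 in liver control and lung GOF only. The part of sample handling in the Pfkfb3 values was not tested. Between organs, Pfkfb3 differed by -0.03 ± 0.22 in control and by -0.70 ± 0.35 in GOF (adjusted p = 0.184 by edgeR). Under 16 alternatives for GOF it was called in 1, without liver GOF library B, the lowest of its group (adjusted p = 0.0427).

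**Figure D4:**
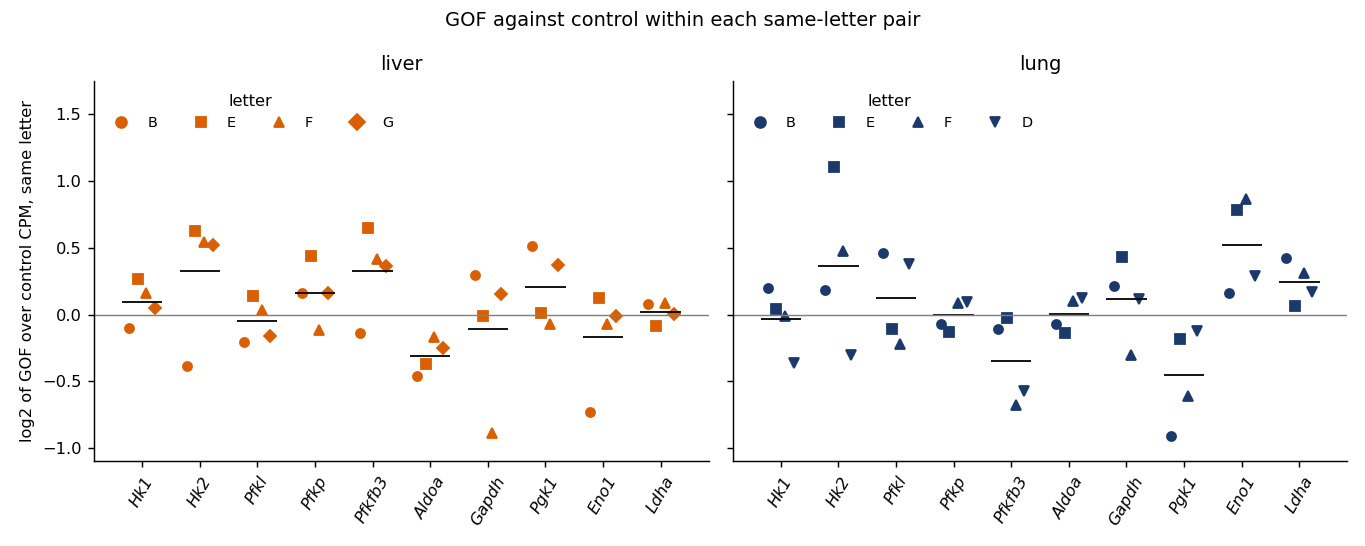
Log2 ratio of GOF to control CPM within each same-letter pair of libraries, for the 10 genes in liver (left) and lung (right); bars give the mean of 4 pairs and marker shapes the letter. Aldoa is below 0 in all liver pairs, and in lung Pfkfb3 and Pgk1 are below 0 and Eno1 and Ldha above 0 in all pairs.

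Aldoa, the aldolase of muscle and most other tissues, had the smallest spread of the 10, an SD within groups of 0.18 on the log2 scale, and 94.3% of genes varied more. In liver control it measured 526, 400, 435 and 345 CPM and in liver GOF 383, 309, 388 and 290, lower in GOF in each of the 4 pairs, by -0.46, -0.37, -0.17 and -0.25 on the log2 scale. The groups overlapped, since letter F of GOF lay above letter G of control. The difference was -0.32 ± 0.17 (adjusted p = 0.838), and paired by letter -0.31 ± 0.085 (adjusted p = 0.0808) by edgeR; DESeq2 with the same pairing gave -0.32 with an adjusted p of 0.00525. Leaving out pair B gave a paired value of -0.26 (adjusted p = 0.211). In lung Aldoa was at 405, 429, 386 and 417 CPM in control and 386, 391, 414 and 454 in GOF, a difference of 0.01 ± 0.14. The hepatocyte markers moved in the same direction in liver: they summed to 3917, 921, 2047 and 850 CPM in control (B, E, F, G) and 1811, 752, 1173 and 911 in GOF, lower in GOF in 3 of 4 pairs. All 14 had reads in each of the 8 liver libraries, and 3 of them were called lower in the paired fit. From highest to lowest, the liver control libraries ran B, F, E, G for both Aldoa and the hepatocyte sum, whereas the liver GOF libraries ran F, B, E, G for Aldoa and B, F, G, E for the sum. Cholangiocyte markers, summing to 20.7 to 156 CPM in liver control and 14.03 to 72.4 in GOF, and mesothelial markers, at 46.7 to 135 and 20.2 to 69.7, were lower in GOF in 4 of 4 liver pairs. Fibroblast, mural and stellate, platelet, erythroid, and alveolar type 1 and airway markers were lower in 3 of 4. Other sums went the other way. Pan-endothelial and alveolar type 2 markers were higher in GOF in 4 of 4 liver pairs. Of the 6 alveolar type 2 genes, 2 had reads in all 8 liver libraries, and Sftpc was at 0 CPM in liver control. Cell cycle, macrophage, and neutrophil and monocyte markers were higher in 3 of 4. The macrophage mean was nevertheless 76.3 CPM in liver control and 62.2 in liver GOF. The part of these cells in the Aldoa values was not tested.

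Gapdh, which oxidises glyceraldehyde 3-phosphate, was at 8.73, 10.7, 12.95 and 13.04 CPM in liver control and 10.7, 10.6, 7.02 and 14.5 in liver GOF. In lung it was at 12.7, 9.71, 8.04 and 7.83 CPM in control and 14.7, 13.1, 6.52 and 8.48 in GOF. The groups overlapped in every comparison, with GOF differences of -0.08 ± 0.26 in liver and 0.17 ± 0.33 in lung (log2, SE). With the reads of its listed copies added, Gapdh came to 19.7 ± 2.92 CPM in liver control and 15.6 ± 2.99 in lung control (SD, n = 4), and the GOF differences became -0.17 and 0.26, with adjusted p of 0.955 and 1.

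Pgk1, whose enzyme makes the first ATP of the pathway, measured 9.45, 11.2, 12.8 and 12.1 CPM in liver control and 13.5, 11.3, 12.1 and 15.7 in liver GOF. In lung it measured 12.5, 12.5, 8.8 and 7.4 CPM in control and 6.64, 11.02, 5.78 and 6.78 in GOF, lower in 4 of 4 pairs. All liver GOF libraries were above all lung GOF libraries, the only one of the 10 with that separation, which 30.6% of genes showed. The lung against liver difference in GOF was -0.79 ± 0.28 with an adjusted p of 0.0615 by edgeR, so that 0 of the 10 were called there, beside 25.4% of 15905 genes. DESeq2 gave -0.78 with an adjusted p of 0.0427, and leaving out the lung GOF library E gave -1.03 with an adjusted p of 0.0211. With the reads of Pgk1-rs7 added, the difference was -0.68, with an adjusted p of 0.0692. The difference of the GOF effects was -0.64 ± 0.37 (adjusted p = 0.912).

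Eno1, the enolase of most non-neuronal cells, was at 32.1, 17.3, 19.9 and 13.5 CPM in liver control and 19.4, 18.9, 18.9 and 13.4 in liver GOF. In lung it was at 12.6, 8.70, 8.90 and 15.1 CPM in control and 14.1, 14.9, 16.2 and 18.4 in GOF, higher in 4 of 4 pairs by 0.16 to 0.86 on the log2 scale. The fitted GOF difference was 0.50 ± 0.26 in lung (adjusted p = 1) and -0.23 ± 0.26 in liver (adjusted p = 0.952), and the difference between these effects was 0.73 ± 0.37 (adjusted p = 0.875). Between controls, lung was lower by -0.89 ± 0.31, with an adjusted p of 0.0605 by edgeR. That value depended on single libraries: it was -0.57 (adjusted p = 0.177) without liver control B, the highest, and -1.05 (adjusted p = 0.038) without liver control G. With the reads of its 2 copies added, Eno1 came to 59.8 ± 10.01 CPM in liver control and 34.9 ± 6.47 in lung control (SD, n = 4). The organ difference was then -0.79, with an adjusted p of 0.00989. In lung GOF the sum was 47.6 ± 2.63 CPM, and the GOF difference there was 0.46, with an adjusted p of 1.

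Ldha, the lactate dehydrogenase subunit that favours the formation of lactate, measured 215, 217, 244 and 208 CPM in liver control and 227, 204, 259 and 209 in liver GOF, a difference of 0.02 ± 0.13. In lung it measured 210, 217, 143 and 185 CPM in control and 281, 227, 177 and 208 in GOF, higher in 4 of 4 pairs. The lung difference was 0.25 ± 0.19 (adjusted p = 1), and 0.25 ± 0.11 when paired (adjusted p = 0.816), by edgeR. Letter F was lowest in both lung groups, as it was for Hk1, Hk2, Pfkfb3 and, in GOF, Pfkl, Gapdh and Pgk1.

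Beside the lung genes that went one way in 4 of 4 pairs (Pfkfb3 and Pgk1 lower, Eno1 and Ldha higher), some marker sums did so too. The 8 lymphocyte markers summed to 6.08 to 11.2 CPM in lung control and 7.86 to 14.7 in lung GOF, the 7 erythroid markers to 4.07 to 31.5 and 4.17 to 52.95, and the 10 cell cycle genes to 112 to 187 and 155 to 256, each higher in GOF in 4 of 4 pairs. In each of the 8 lung libraries 2 of the lymphocyte, 2 of the erythroid and 9 of the cell cycle genes had reads. Ptprc was at 9.48 ± 6.84 CPM in lung control and 22.1 ± 8.16 in lung GOF (SD, n = 4). By edgeR, 0 genes of these 3 lists were called in lung, paired or not. The part of these cells in the values of Pfkfb3, Pgk1, Eno1 and Ldha was not tested.

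**Figure D5:**
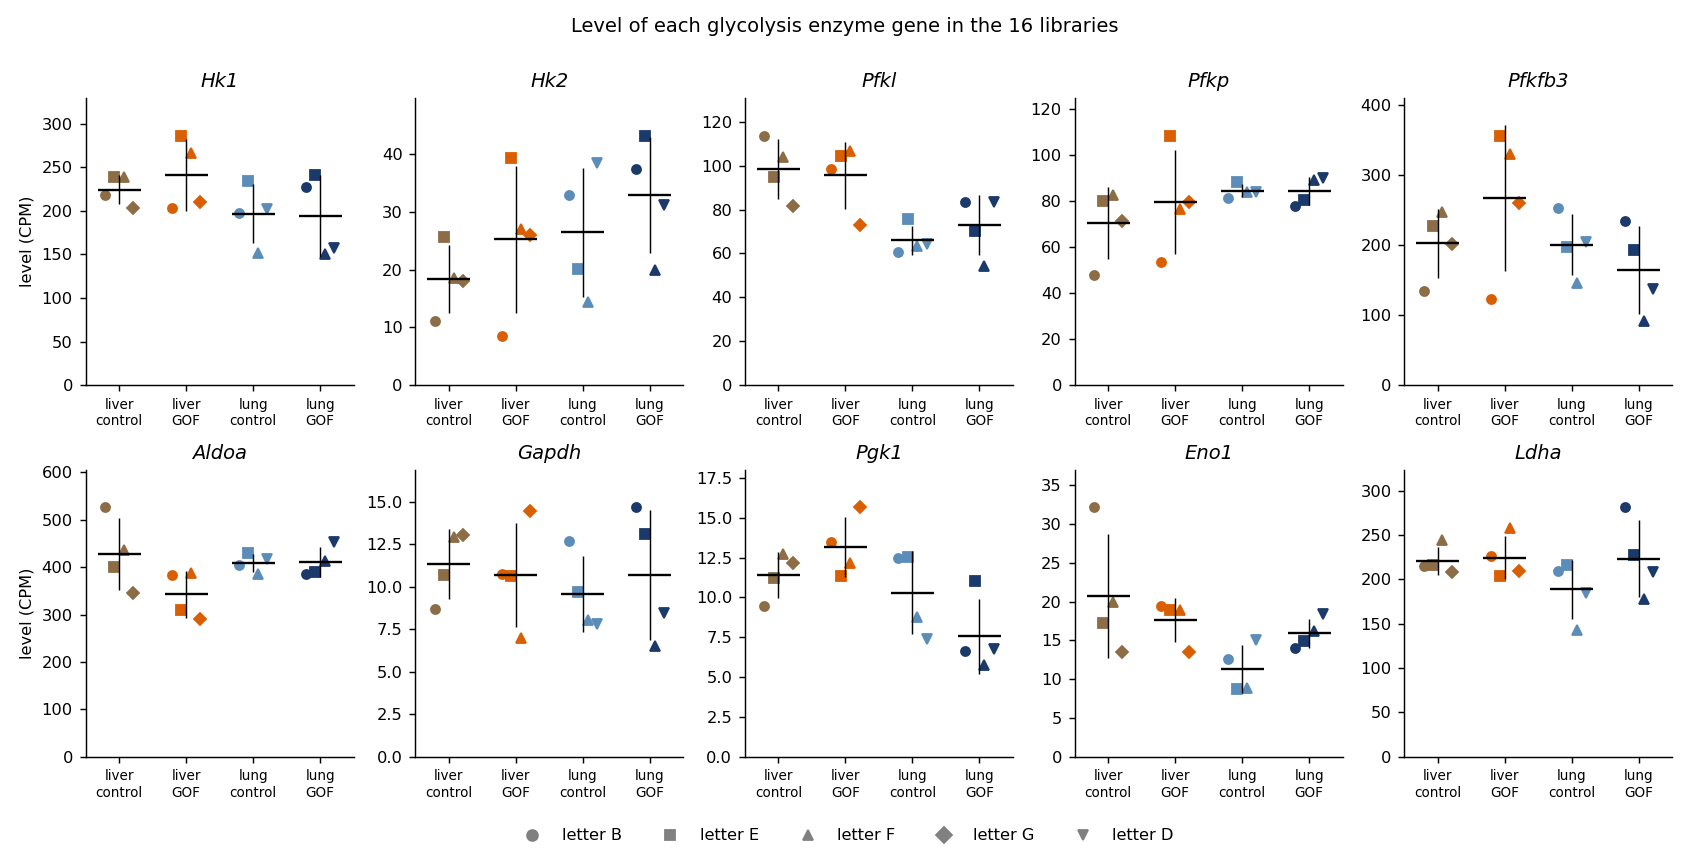
Level of each gene in CPM (TMM-scaled, axis from 0) in the 16 libraries, with the mean (bar) and SD (line) of each group of 4; marker shapes give the library letter. GOF and control overlap in every panel, and Pfkl is lower in all 4 lung control libraries than in all 4 liver control libraries.

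The 10 genes did not vary as 1 block. Over the 16 libraries, deviations from the group means of log2 CPM correlated between pairs of the 10 with Pearson's r from -0.56 to 0.89 and a median of 0.22 over 45 pairs, as a description of libraries that share letters, depth and cell make-up. Hk2 and Pfkfb3 were the most alike, at 0.89, and Hk1 and Pfkfb3 followed among the genes of the first steps at 0.75. Aldoa and Eno1 went together at 0.76 and Gapdh with Pgk1 at 0.68, while Aldoa against Gapdh was lowest at -0.56. Among all 17545 other genes, the one most like Pfkfb3 was Sod2, the mitochondrial superoxide dismutase, with r = 0.98, followed by Ppp2r2a at 0.93. Hk2 was most like the metallothionein gene Mt1 and the secreted factor gene Metrnl, both at 0.92. Eno1 was most like the epithelial keratin gene Krt8, at 0.97, followed by Ifi27l1 and the keratin gene Krt19, at 0.90 each. Krt8 was at 23.6 ± 11.03 CPM in liver control and 12.3 ± 2.99 in liver GOF, and at 110 ± 50.4 and 122 ± 11.2 in lung (SD, n = 4). The part of epithelial RNA in the Eno1 values was not tested. For Aldoa the most alike were Bola1 at 0.92 and Ift27 at 0.91, and for Pfkl Dbi at 0.88.

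Other genes around the pathway, in lists chosen for this purpose, were also compared between GOF and control. Without pairing, 0 genes of the 8 lists were called in either organ, beside 0.0321% of all genes in liver and 0% in lung. Paired by letter, 0 were called in lung, beside 0.0192% of all genes. In liver, where 2.58% of all genes were called in pairs, Khk, Myc and Mycn were among those called. Khk, the ketohexokinase that opens fructose breakdown, was lower by -0.51 ± 0.12 (adjusted p = 0.0425 by edgeR). Of the 7 tested genes of its list, gluconeogenesis and fructose enzymes, 1 was higher in GOF, and the list median was -0.51. Hepatocyte markers were lower in 3 of 4 liver pairs, and 3 of 14 were called lower in the same fit. The part of hepatocyte RNA in the Khk value was not tested. Among 13 tested regulators of glycolysis, Myc was higher by 0.81 ± 0.10 (adjusted p = 0.00211) and Mycn, its relative, by 1.98 ± 0.30 (adjusted p = 0.00541), both in the paired edgeR fit. Myc, known to act on promoters of glycolytic genes in growing cells and itself a Wnt target, was at 89.9 ± 39.3 CPM in liver control and 154 ± 63.8 in liver GOF, and at 72.9 ± 25.6 and 80.9 ± 23.6 in lung (SD, n = 4). Of 19 genes induced by hypoxia-inducible factors outside glycolysis, 0 were called for GOF in either organ or fit.

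Between the control groups of the organs, more genes of these lists were called, as they were among all genes, of which 24.9% passed. Of 5 tested glucose transporter genes, 2 were higher in lung control: Slc2a1, the main endothelial glucose transporter, at 25.4 ± 2.98 CPM in liver and 43.6 ± 8.24 in lung, with a difference of 0.77 ± 0.19 (adjusted p = 0.0111), and the little expressed Slc2a12. Of 8 tested genes of gluconeogenesis and fructose use, 4 were lower in lung and 2 higher; Pck1, G6pc and Fbp1, which serve glucose output by hepatocytes, were among the lower ones, with Pck1 at 45.6 ± 26.8 CPM in liver control and without a read in the lung control libraries. Of 14 listed genes of pyruvate and lactate handling, 13 were tested, 3 were lower and 1 higher, with the pyruvate dehydrogenase kinase gene Pdk4 at 160 ± 112 CPM in liver control and 22.3 ± 13.1 in lung control (adjusted p = 0.00299). Among other genes of lower glycolysis, Pklr and Tpi1 were lower in lung and Bpgm, which makes 2,3-bisphosphoglycerate, was higher by 0.94 ± 0.17 (adjusted p = 0.00229). Of 10 tested other genes of upper glycolysis, Pfkfb4, a relative of Pfkfb3, was higher by 1.34 ± 0.38 (adjusted p = 0.0262). The 8 pentose phosphate genes gave 0 calls between controls. Epas1, which encodes the hypoxia-inducible factor HIF-2 alpha of endothelium, was at 1435 ± 43.8 CPM in liver control and 4703 ± 327 in lung control (difference 1.70 ± 0.14, adjusted p = 1.77e-05). Of the 19 hypoxia-inducible factor targets outside glycolysis, 6 were higher in lung control and 2 lower, with Vegfa at 56.7 ± 22.3 CPM in liver and 649 ± 97.9 in lung. The 6 alveolar type 1 and airway markers summed to 25.95 ± 9.59 CPM in liver control and 3535 ± 1462 in lung control. The part of other cells in these organ differences was not tested. The 10 enzyme genes had in the same comparison a median log2 difference of -0.18, beside -0.04 over all genes.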

How the data were processed

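The authors deposited raw counts of reads for each gene and library, whole numbers in the values; 16 columns of their CPM values were not used. The authors' comparison tables hold a deposited signal column (mean normalised count), log2 fold changes with standard errors, a Wald score, and p-values with their adjusted form, per the file headers; only the adjusted p-values are quoted. Per the submitters' processing notes, the tools were HTSeq 0.6.1, TopHat2 2.0.11, SAMtools 0.1.19, Bowtie2 2.2.1 and DESeq2, with build mm9; annotation, strand setting and treatment of reads with several matches: not given in the sources used here. The library kit, per the labels' protocols, does not mark strand.

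The 10 genes, the lists and the markers were chosen with earlier results of these data known. Fits ran over all genes with edgeR 4.0.16 (R 4.3.3): TMM factors, filterByExpr (minimum count 10, minimum total 15), quasi-likelihood F test without a block, Benjamini-Hochberg adjustment, threshold 0.05. Comparisons between 2 groups used those 8 libraries; the difference of the GOF effects used all 16. All 10 genes passed the filter in every comparison. Alternatives were DESeq2 1.42.0, other scaling factors, no filter, a robust fit, 1 fit of all libraries, left-out libraries, a block for the letter and, chosen after seeing the data, reads of near-identical copies added to Gapdh, Pgk1, Eno1 and Ldha. The fits for GOF were tried on simulated counts without a letter effect, so that trial does not cover variation shared by letter. Its outcome is not given here. Libraries of a group are separate samples per the labels, and no 2 agreed within sampling noise (lowest chi-square per degree of freedom 49.5). Deviations of same-letter libraries from their group means correlated at 0.172 to 0.291 in liver and 0.109 to 0.187 in lung. Every pair was above 0.1, and on this basis letters were used as pairs within an organ. The labels do not say what the letters mean, and correlations between different letters are not given here. Between organs, same-letter deviations correlated at -0.0286 to 0.0503, and letters were not used as pairs. Isozyme ratios were tested by exact permutation of the libraries. From each list, up to 4 called genes with the smallest adjusted p could be named for a comparison, and 1 gene of the lists is not reported here; Sod2, Mt1, Krt8 and other genes most like one of the 10 were named by rank of Pearson's r. Sequence comparison used BLAST 2.17.0 on GENCODE vM21 transcripts (GRCm38, not the build of the counts), so no coordinates are given.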

Additional observations from a re-analysis of the deposited data

Results flagged for a closer look

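Eno1 in liver GOF was the one among 40 groups of 4 values (10 genes in 4 groups) in which a library stood apart by Dixon's criterion: letter G lay at 13.4 CPM below the other 3 at 18.9 to 19.4, a gap of 0.913 of the group's range, above the 95% critical value. Chance alone gives about 1 such group in 20.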

How the results depend on the processing

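Gapdh, Pgk1, Eno1 and Hk2 had the fewest reads, so counting noise is largest for them. Their lowest counts were 178, 180, 259 and 268 reads in a library, while Aldoa, Ldha, Hk1 and Pfkfb3 had at least 2858. The assignment of shared reads could only be varied, by adding the reads counted on listed copies. That sets no bound if reads with several matches were discarded. Of 990 values of single genes under alternatives, 918 kept sign and call, 12 gained the call, 2 lost it and 58 changed sign; the reported value of those that changed sign was at most 0.233 in size, and none was called.

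The number of the 10 genes called for GOF in liver was 0 under 20 of 22 alternatives. It was 1 with DESeq2 and the replicate block (Aldoa), and ranged from 0 to 1 when libraries or pairs were left out (Pfkfb3 without pair B). For GOF in lung it was 0 under all 22 alternatives, and for the difference of the GOF effects under all 23. Between controls it was 2 with DESeq2, with upper-quartile factors, with all 16 libraries in 1 fit and with copies added (Pfkl and Eno1 each time), and 0 to 2 with libraries left out. Between GOF groups it was 1 with DESeq2 and with all 16 libraries in 1 fit (Pgk1), and 0 to 1 with libraries left out.

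The number of all genes called depended more on the model. In liver it was 150 with DESeq2, 3 with upper-quartile factors, 27 without a filter and 27 with all 16 libraries; the replicate block gave 401, with RLE factors 391 and with DESeq2 951, and left-out libraries or pairs gave 1 to 308. In lung it was 11 with DESeq2; the replicate block gave 3, with RLE factors 3 and with DESeq2 117, and left-out libraries or pairs gave 0 to 5. For the difference of the GOF effects it was 38 with DESeq2, 86 with the replicate block and 1 to 3 with libraries left out. Between organs the replicate block over B, E and F, whose letters do not pair the organs, gave 2104 genes in control and 2022 in GOF; Pfkl was then at -0.66 (adjusted p = 0.119) and Eno1 at -1.18 (adjusted p = 0.0395). These fits hold 6 libraries. With edgeR and no pair left out, the block changed no other call on the 10 genes. With DESeq2 the block added the call of Aldoa for GOF in liver (adjusted p = 0.00525).

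Signs changed as follows, on the log2 scale. For GOF in liver, Ldha was at -0.0034 with upper-quartile factors. For GOF in lung, Pfkp was at -0.0030 with DESeq2 and -0.0030 with RLE factors, and with the replicate block at -0.0042 with RLE factors and -0.0042 with DESeq2, and Hk1 was at 0.0017 with upper-quartile factors. For the difference of the GOF effects, Hk2 was at 0.035 with the replicate block. Between controls, Pfkfb3 was at 0.0013 with DESeq2 and 0.0013 with RLE factors. Between GOF groups, Ldha was at 0.016 with DESeq2 and 0.016 with RLE factors, and Gapdh at -0.030 with upper-quartile factors, -0.0042 without a filter and -0.0078 with all 16 libraries.

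With libraries or pairs left out, the liver GOF difference ranged from -0.13 to 0.065 for Pfkl, -0.016 to 0.32 for Pfkp, -0.26 to 0.14 for Gapdh, -0.39 to 0.062 for Eno1 and -0.053 to 0.073 for Ldha. The lung GOF difference ranged from -0.13 to 0.090 for Hk1, -0.038 to 0.051 for Pfkp, -0.040 to 0.063 for Aldoa and -0.025 to 0.34 for Gapdh. The difference of the GOF effects ranged from -0.43 to 0.16 for Hk2 and -0.32 to 0.023 for Pfkp. Between controls the range was -0.16 to 0.10 for Pfkfb3 and -0.17 to 0.068 for Aldoa, and between GOF groups -0.060 to 0.28 for Pfkp, -0.19 to 0.18 for Gapdh and -0.13 to 0.094 for Ldha. The log2 ratio of Hk2 to Hk1 between GOF groups ranged from 0.48 to 1.05, and that of Pfkp to Pfkl for GOF in liver from -0.039 to 0.40. The causes of these changes were not tested.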
